A study of Mus musculus with 6 samples.

Results

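The transcripts of 10 receptor genes of the CD300 and paired immunoglobulin-like receptor (PIR) families were followed in MC38 tumors. The genes were taken by symbol from the deposited table and are 10 of its 33965 genes: Cd300a, Cd300c2, Cd300lb, Cd300ld, Cd300lf, Cd300lg, Pira2, Pirb, Lilra6 and Lilrb4a. All 10 passed the filter on low counts, as did 19602 genes in all. The members were selected on their family and on their counts in GB2 against PBS tumors, whose difference was known, so that difference is described with its standard error and without a test.
MC38 cells, a line from a mouse colon carcinoma, were grown under the skin of C57BL/6 mice. RNA of whole tumors was sequenced from 3 tumors of mice given PBS, the control group, and from 3 of mice given GB2, a prodrug in which a disulfide bond links the STING agonist MSA-2 to artesunate, which the study uses as a TREM2 inhibitor. Per the study's methods the mice were female and 6 weeks old when bought. The labels give neither the dose nor the day of sampling, no genetic change is named for either group, and nothing in them says that the tumors came from separate mice, so p-values measure only the spread between these tumors.

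CD300 and PIR receptors are membrane proteins with immunoglobulin domains, carried mostly by macrophages, monocytes, neutrophils, dendritic cells and mast cells. They come as pairs. Inhibitory members bear tyrosine motifs (ITIMs) in a long tail that recruit the phosphatases SHP-1, SHP-2 and SHIP-1, while activating members have a short tail and signal through the ITAM adaptors DAP12 or the Fc receptor gamma chain. CD300 proteins bind lipids exposed on dying cells, such as phosphatidylserine and ceramide, and PIR-B binds MHC class I. Myeloid cells usually carry both kinds, and their balance tunes the response to other signals.
Inhibitory members here were Cd300a, Cd300lf, Pirb and Lilrb4a, and activating members were Cd300c2, Cd300lb, Cd300ld, Pira2 and Lilra6. Cd300lg, which encodes nepmucin, an adhesion protein of vascular endothelium, was put in neither class.

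On the positions of the deposited table, 5 of the CD300 genes lie within 244 kb of chromosome 11 (114780867 to 115024818), with Cd300a at one end and Cd300lf at the other. Pirb, Pira2 and Lilra6 lie within 204 kb of chromosome 7 (3714408 to 3918502). Cd300lg is on chromosome 11 as well, from 101932335 to 101946446, and Lilrb4a is on chromosome 10, from 51367052 to 51372707, next to its paralog Lilrb4b. The submitters' processing notes name mm10, but none of the 10 genes has the start and end of the GRCm38 annotation (GENCODE M21), although all 10 have the same span, so the positions printed for genes are the table's own.
RefSeq promoters on GRCm38.p6, reaching from 250 bases before to 50 bases after the transcript start, were matched by symbol for 8 of the 10 genes. Those of Pira2 and Lilra6 were 95.0% identical, and that of Pirb was 80.5% identical to Pira2 and 78.5% to Lilra6. Between CD300 genes, and between CD300 and PIR genes, identity lay between 44.4% and 49.2%. The letters GAGGAAGT, a site of the myeloid transcription factor PU.1, were found on either strand in 5 of the 8 promoters, against 3.2% of 32851 promoters of the same length. The 3 PIR promoters are near copies, so these matches are not separate cases. Below are the promoters of an inhibitory and an activating PIR gene and of the 2 CD300 genes with a match, with GAGGAAGT in capitals.
Pirb, chr7:3720333-3720632, minus strand: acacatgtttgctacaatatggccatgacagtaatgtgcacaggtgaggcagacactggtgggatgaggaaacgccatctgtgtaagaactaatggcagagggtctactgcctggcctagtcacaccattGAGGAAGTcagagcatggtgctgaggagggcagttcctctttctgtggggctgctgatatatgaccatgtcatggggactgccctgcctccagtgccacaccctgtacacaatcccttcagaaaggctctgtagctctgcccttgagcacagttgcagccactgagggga
Pira2, chr7:3845002-3845301, minus strand: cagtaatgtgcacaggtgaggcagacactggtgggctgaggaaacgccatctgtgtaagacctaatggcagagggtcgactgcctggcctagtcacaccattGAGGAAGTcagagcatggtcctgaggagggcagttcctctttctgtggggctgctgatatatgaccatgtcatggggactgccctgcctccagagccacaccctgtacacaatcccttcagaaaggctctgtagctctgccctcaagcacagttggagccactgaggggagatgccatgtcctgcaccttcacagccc
Cd300ld, chr11:114989837-114990136, minus strand: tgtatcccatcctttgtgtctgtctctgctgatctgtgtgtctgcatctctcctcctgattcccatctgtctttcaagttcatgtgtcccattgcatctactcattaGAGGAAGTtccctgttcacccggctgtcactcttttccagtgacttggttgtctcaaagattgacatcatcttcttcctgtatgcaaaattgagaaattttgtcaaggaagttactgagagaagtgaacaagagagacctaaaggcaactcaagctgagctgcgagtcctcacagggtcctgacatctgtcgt
Cd300lf, chr11:115133943-115134242, minus strand: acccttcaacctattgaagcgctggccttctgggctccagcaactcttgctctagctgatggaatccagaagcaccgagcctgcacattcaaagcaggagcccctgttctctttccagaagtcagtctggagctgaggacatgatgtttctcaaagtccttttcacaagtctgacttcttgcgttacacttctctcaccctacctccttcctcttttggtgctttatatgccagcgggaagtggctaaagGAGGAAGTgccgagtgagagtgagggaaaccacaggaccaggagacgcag
The match began 120 bases before the start in Pirb, 148 bases before it in Pira2, 150 in Lilra6 and 143 in Cd300ld, and at the first transcribed base in Cd300lf. Its inner letters AGGAAG, the ETS core, were found in 8 of 8 promoters and in 35.4% of all. The ISRE, the motif of interferon-regulated factors, was found in 1 promoter, that of Cd300c2, against 3.44% of all. TTGCNNAA (C/EBP) was found in 1, that of Cd300a, against 10.8%, TATAAA in Cd300lb and Cd300lf against 13.6%, and TTCNNNGAA (GAS) in 0 against 8.3%. Such matches describe letters and show no binding.

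Libraries held between 64764405 and 83690056 estimated counts, and the smallest GB2 library exceeded the largest PBS library. Among low values 4 was the commonest (7017 values, against 5446 of 1, 4996 of 2 and 2984 of 3), so 1 read pair was taken as about 4 counts. This is an assumption, and read-pair numbers and lower bounds below rest on it. The first principal component, with 34% of the variance, set PBS tumor 1 apart. In the quasi-likelihood test of edgeR, adjusted after Benjamini and Hochberg, 0 genes had an adjusted p under 0.05 and at least 2-fold between groups, which is 0% of those tested, and 1360 had an unadjusted p under 0.05. DESeq2 called 380 genes at the same limits and limma on log2(FPKM + 1) called 0. The smallest adjusted p was 0.166.
Macrophage markers differed between the groups in the same direction as the receptors. The 8 markers summed to between 33.4 and 53.2 CPM (counts scaled to library size, with TMM factors) in PBS tumors and between 113 and 206.5 CPM in GB2 tumors, and in 8 of 8 the groups did not overlap, being higher in GB2 tumors, as in 8.61% of all tested genes. Leukocyte markers such as Ptprc summed to 8.15 to 20.8 CPM against 31.7 to 51.4 CPM, and mast cell markers to 4.08 to 6.38 CPM against 10.6 to 13.9 CPM. Most of the mast cell sum was Kit, at 3.47 to 6.07 CPM in PBS tumors and 8.96 to 11.2 CPM in GB2 tumors. Neutrophil markers summed to 2.07 to 4.44 CPM against 9.14 to 12.02 CPM, with the defining gene Ly6g at 0 in all 6 tumors. Endothelial markers summed to 71.0 to 80.7 CPM against 147.6 to 165.7 CPM, and fibroblast markers to 173.8 to 346.3 CPM against 585.0 to 838.9 CPM. In none of these 6 lists did the sums overlap. Skin markers summed to 12.1 to 70.9 CPM against 54.4 to 100.8 CPM, and muscle markers to 59.2 to 104.3 CPM against 102.9 to 141.5 CPM. These sums overlapped, with median log2 fold changes of 1.10 for skin and 0.58 for muscle. The part of all these lists in the values of the receptors was not tested. In bulk RNA, fewer cells of a type and less RNA per cell cannot be told apart. The sum of the epithelial markers, Epcam and Cdh1 among them, was at most 7.74 CPM in any tumor, and Krt19 was at 0 in 3 of the 6 tumors.

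All 10 receptor transcripts, where 48.3% of all tested genes had a log2 fold change above 0, were more abundant in GB2 than in PBS tumors, by a log2 fold change between 1.17 (Cd300lg) and 2.42 (Cd300lb), with a median of 1.9 where the median of all tested genes was -0.02. All 10 had a fold change of at least 2, as did 7.35% of all tested genes upward. In 8 of the 10 the lowest GB2 tumor was above the highest PBS tumor, as in 8.61% of all tested genes (the reverse held for 0 of the 10 and for 6.68% of all), and the exceptions were Cd300lf and Lilrb4a. As the genes were chosen with this change known, nothing is read from these counts.

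**Figure D1:**
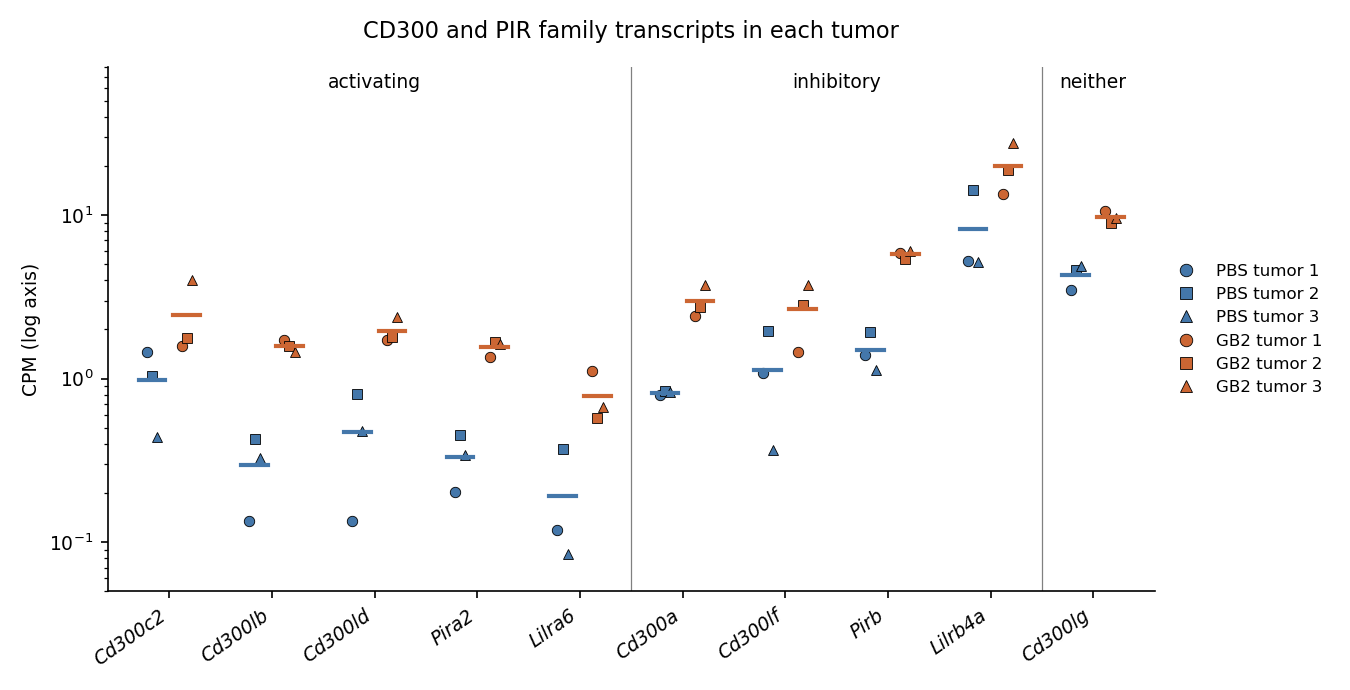
CPM of the 10 receptor genes on a log axis, with 1 point per tumor and a bar at the mean of 3 tumors. The 2 groups overlap in Cd300lf and Lilrb4a, where PBS tumor 2 lies above GB2 tumor 1.

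Among the activating receptors, Cd300lb (ENSMUSG00000063193) encodes CLM-7 or LMIR5, which signals through DAP12. It stood at 0.135, 0.426 and 0.325 CPM in PBS tumors 1, 2 and 3 and at 1.73, 1.59 and 1.46 CPM in GB2 tumors 1, 2 and 3. The lowest GB2 tumor was 3.43 times the highest PBS tumor, and the 3 GB2 tumors lay close together while PBS tumor 1 was lowest. The log2 fold change was 2.42 (SE, the standard error of the edgeR fit, 0.49, n = 3 against 3). Its deposited counts were 8, 30 and 23 against 145, 132 and 124, so the lowest PBS tumor rests on about 2 read pairs.
Pira2 (ENSMUSG00000089942) encodes an activating PIR-A receptor that needs the Fc receptor gamma chain. Its values were 0.203, 0.454 and 0.340 CPM in PBS tumors and 1.36, 1.68 and 1.64 CPM in GB2 tumors. The lowest GB2 tumor was 2.99 times the highest PBS tumor, and the log2 fold change was 2.22 (SE 0.43).
Lilra6 (ENSMUSG00000030427), also known as Pira3, is a further PIR-A gene and had the lowest mean FPKM of the 10 genes in both groups. At 0.118, 0.369 and 0.0849 CPM in PBS tumors and 1.12, 0.577 and 0.671 CPM in GB2 tumors, it showed a log2 fold change of 2.03 (SE 0.68). PBS tumor 2 was well above PBS tumors 1 and 3, and dropping it raised the log2 fold change to 2.95. Dropping PBS tumor 3 instead lowered the value to 1.68, and dropping GB2 tumor 1 lowered it to 1.7. PBS tumor 3 held 6 counts, or about 1.5 read pairs, which limits the precision of the fold of Lilra6.
Cd300ld (ENSMUSG00000034641) encodes CLM-5, which couples to the Fc receptor gamma chain in myeloid cells. Its values were 0.135, 0.809 and 0.481 CPM in PBS tumors and 1.72, 1.79 and 2.39 CPM in GB2 tumors. PBS tumors spread 5.98-fold and GB2 tumors 1.39-fold, without overlap between them, and the log2 fold change was 2.04 (SE 0.61). It was 2.66 without PBS tumor 2 and 1.62 without PBS tumor 1.
Cd300c2 (ENSMUSG00000044811) is the gene of CLM-4 or MAIR-II. It stood at 1.45, 1.04 and 0.439 CPM in PBS tumors and at 1.58, 1.78 and 3.99 CPM in GB2 tumors. The groups nearly touched, since GB2 tumor 1 was 1.09 times PBS tumor 1, and GB2 tumor 3 was the highest of the 6. The log2 fold change was 1.33 (SE 0.56), and it was 0.79 without GB2 tumor 3.

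Of the inhibitory receptors, Pirb and Cd300a separated the groups and Cd300lf and Lilrb4a did not. Pirb (ENSMUSG00000058818) encodes PIR-B, which binds MHC class I and restrains myeloid activation. It stood at 1.40, 1.93 and 1.13 CPM in PBS tumors and at 5.84, 5.41 and 6.02 CPM in GB2 tumors, with 2.80-fold between the nearest tumors of the groups. The log2 fold change was 1.95 (SE 0.30).
Cd300a (ENSMUSG00000034652), the gene of CLM-8 or MAIR-I, which binds phosphatidylserine and phosphatidylethanolamine, was the steadiest of the receptors in PBS tumors. Its values were 0.795, 0.837 and 0.835 CPM there and 2.41, 2.75 and 3.76 CPM in GB2 tumors. The spread was 1.05-fold among PBS tumors and 1.57-fold among GB2 tumors, and the log2 fold change was 1.85 (SE 0.32).
Cd300lf (ENSMUSG00000047798) encodes CLM-1, a receptor for phosphatidylserine and ceramide that is also the entry receptor of murine norovirus. It stood at 1.08, 1.94 and 0.368 CPM in PBS tumors and at 1.45, 2.81 and 3.75 CPM in GB2 tumors. PBS tumor 2 exceeded GB2 tumor 1, so the groups overlapped, and the log2 fold change was 1.24 (SE 0.63). It was 0.82 without PBS tumor 3, the lowest of the 6, 0.92 without GB2 tumor 3 and 1.89 without PBS tumor 2.
Lilrb4a (ENSMUSG00000112148) encodes gp49B, the mouse counterpart of LILRB4, an inhibitory receptor of myeloid and mast cells. It stood at 5.28, 14.2 and 5.19 CPM in PBS tumors and at 13.5, 19.0 and 27.5 CPM in GB2 tumors. PBS tumor 2 again lay above GB2 tumor 1, at 1002 against 1132 counts but in the smaller library. The log2 fold change was 1.28 (SE 0.47). Dropping GB2 tumor 3 lowered it to 0.98, under a fold change of 2, while dropping PBS tumor 2 raised it to 1.94.
Cd300lg (ENSMUSG00000017309) is the endothelial member. Its values were 3.48, 4.61 and 4.90 CPM in PBS tumors and 10.6, 8.95 and 9.59 CPM in GB2 tumors. The groups were 1.83-fold apart at their nearest tumors, and the log2 fold change was 1.17 (SE 0.24).

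Levels of different genes were compared per length, in FPKM. In PBS tumors Cd300lg (1.48 ± 0.34 FPKM, SD, n = 3) and Lilrb4a (1.47 ± 0.98) came first, followed by Cd300c2 (0.689) and Pirb (0.307), and Lilra6 came last (0.0567). Of the 9 pairs of neighbours in this order, only Cd300a and Cd300lb did not overlap between their tumors. In GB2 tumors Lilrb4a (3.74 ± 1.36 FPKM) and Cd300lg (3.48 ± 0.37) were again first with overlapping values, and Cd300c2 (1.88), Pirb (1.26) and Cd300ld (0.727) followed. Of the neighbours in this group, Cd300lg lay above Cd300c2, Pirb above Cd300ld and Pira2 above Lilra6 without overlap.
Within each tumor, the FPKM of Pira2 and Lilra6 together was 0.303, 0.585 and 0.478 times that of Pirb in PBS tumors and 0.578, 0.558 and 0.509 times in GB2 tumors. The groups overlapped. With Pira1, Pira12 and Pira13 added to the activating side, a sum chosen after seeing the data, the ratios were 0.574, 1.41 and 1.09 in PBS tumors and 1.18, 1.25 and 1.18 in GB2 tumors. Pirb was thus above the activating pair in every tumor, but below the sum of 5 activating genes in each tumor except PBS tumor 1. For the CD300 genes, the sum of the activating Cd300c2, Cd300lb and Cd300ld was 3.27, 2.30 and 2.57 times that of Cd300a and Cd300lf in PBS tumors and 3.14, 2.32 and 2.98 times in GB2 tumors. The activating sum was the higher one in every tumor, and again the groups overlapped.
Averaged on the log2 CPM scale, the 5 activating genes stood at -1.92, -0.74 and -1.64 in PBS tumors and at 0.59, 0.49 and 0.81 in GB2 tumors. The 4 inhibitory genes stood at 0.70, 1.39 and 0.26 against 2.04, 2.42 and 2.80. Both classes were higher in each GB2 tumor than in any PBS tumor. The activating mean minus the inhibitory mean was -2.62, -2.13 and -1.9 in PBS tumors and -1.45, -1.93 and -1.99 in GB2 tumors. PBS tumor 3 lies above GB2 tumors 2 and 3 on this measure, so the groups overlapped. The mean difference between the groups was 0.43 on the log2 CPM scale, near the SD of 0.37 between PBS tumors. Leaving out PBS tumor 1 gave 0.23 and leaving out GB2 tumor 1 gave 0.25. The difference was 0.22 with counts divided by 4, 0.08 on log2(FPKM + 0.1) and -0.16 on log2(FPKM + 1), where the low activating genes count less.

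Set against the macrophage markers of the same tumor, the receptors showed smaller differences between the groups. The mean log2 CPM of the 8 markers was 2.2 ± 0.40 (SD, n = 3) in PBS and 3.97 ± 0.46 in GB2 tumors, a difference of 1.78. Activating receptors minus the markers gave -4.36, -3.17 and -3.37 in PBS tumors and -3.06, -3.28 and -3.69 in GB2 tumors. Inhibitory receptors minus the markers gave -1.74, -1.03 and -1.47 against -1.61, -1.36 and -1.69. In both classes the groups overlapped. Relative to the markers the difference between the groups was 0.67 for Cd300lb, 0.49 for Cd300ld, 0.43 for Pira2, 0.30 for Lilra6, 0.19 for Pirb and 0.02 for Cd300a. It was below 0 for Cd300lf (-0.38), Lilrb4a (-0.39), Cd300c2 (-0.44) and the endothelial Cd300lg (-0.60). The median over the 10 genes was 0.10 on this scale. The part of the macrophage markers in the difference of the receptors was not tested.
Cd300lg was set against the 8 endothelial markers instead, whose mean log2 CPM was 2.62 ± 0.05 in PBS and 3.81 ± 0.12 in GB2 tumors. Cd300lg minus these markers was -0.77, -0.38 and -0.37 in PBS tumors and -0.40, -0.53 and -0.66 in GB2 tumors. The means differed by -0.02, less than the SD of 0.23 between PBS tumors. The part of the endothelial markers in the values of Cd300lg was not tested.

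**Figure D2:**
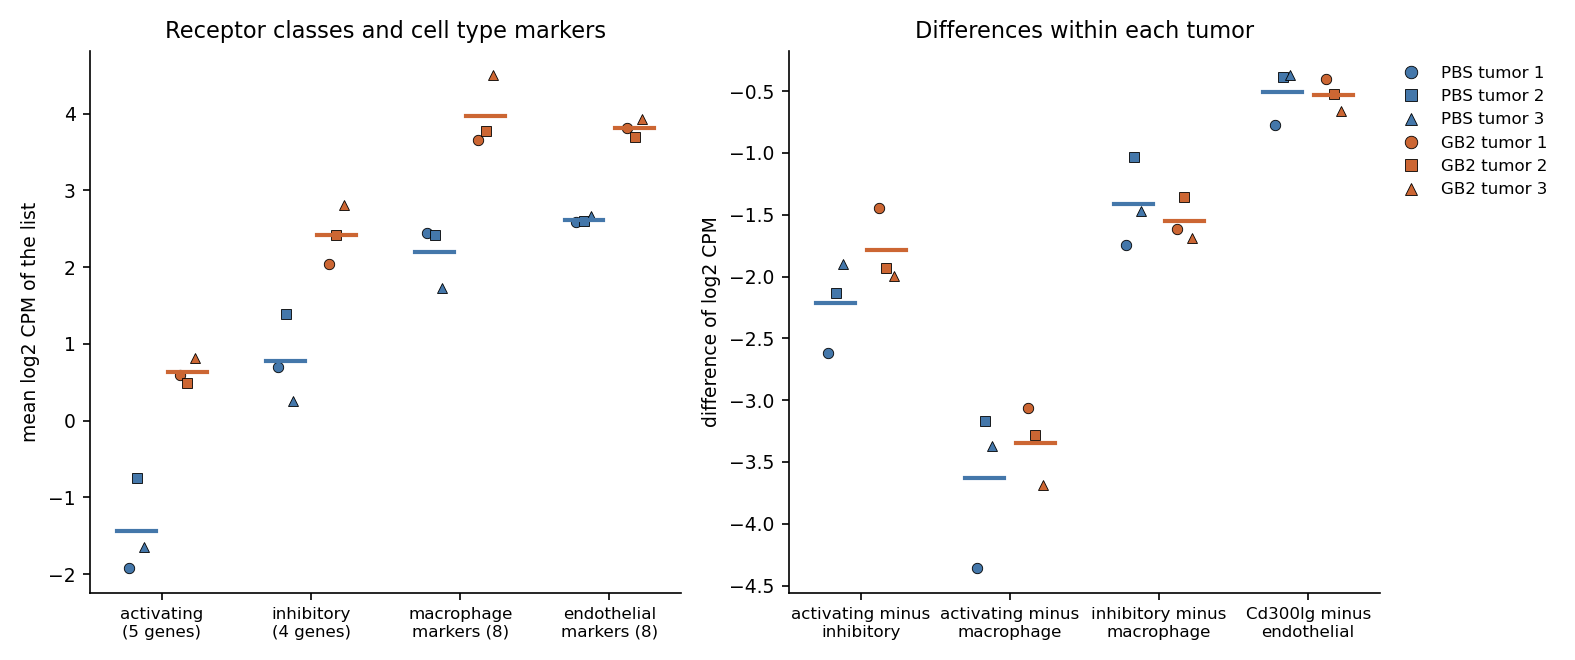
Left, mean log2 CPM of the receptor classes and of the marker lists, and right, differences between such means (for Cd300lg, its own log2 CPM), with 1 point per tumor and a bar at the mean of 3 tumors. All lists on the left are higher in GB2 tumors, while the groups overlap in each difference on the right.

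Several members share long stretches with paralogs, which can split reads between them. Windows of 150 bases were compared among GENCODE M21 transcripts. In Pira2, 75.8% of windows also occurred in another gene, mainly Pira1 (64.9%) and Pira12 (19.7%). The share was 30% in Lilrb4a, mainly with Gm49339 (29.3%), a gene model that covers both Lilrb4a and Lilrb4b. It was 13.4% in Pirb and 5.56% in Lilra6, and 0% in each of the 6 CD300 genes. The values of Pira2 and Lilrb4a are therefore uncertain as single genes.
Sums over such rows depend less on how reads were split among them. The 6 PIR-A rows (Pira1, Pira2, Pira12, Pira13, Pira2-ps1 and Lilra6) summed to 0.643, 1.86 and 0.962 CPM in PBS tumors and to 5.00, 4.84 and 5.02 CPM in GB2 tumors, a ratio of means of 4.29 beside 3.87 for Pirb. This sum still depends on the split with Pirb, since 11.2% of Pira2 windows also occur there. All 9 rows of the family that share windows, Pirb included, a sum also chosen after seeing the data, came to 2.23, 4.07 and 2.18 CPM in PBS tumors and to 11.4, 10.9 and 11.7 CPM in GB2 tumors, a ratio of means of 4.01. Here too each GB2 tumor was above each PBS tumor.
Gm49339 held 0, 0 and 8 counts in PBS tumors but 370, 22 and 0 in GB2 tumors, so most of its counts were in GB2 tumor 1, the GB2 tumor in which Lilrb4a was lowest. Lilrb4a, Lilrb4b and Gm49339 together stood at 9.98, 24.8 and 10.1 CPM in PBS tumors and at 34.4, 38.6 and 53.5 CPM in GB2 tumors. On the sum the groups did not overlap, with a ratio of means of 2.82, whereas on the Lilrb4a row alone they did.

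**Figure D3:**
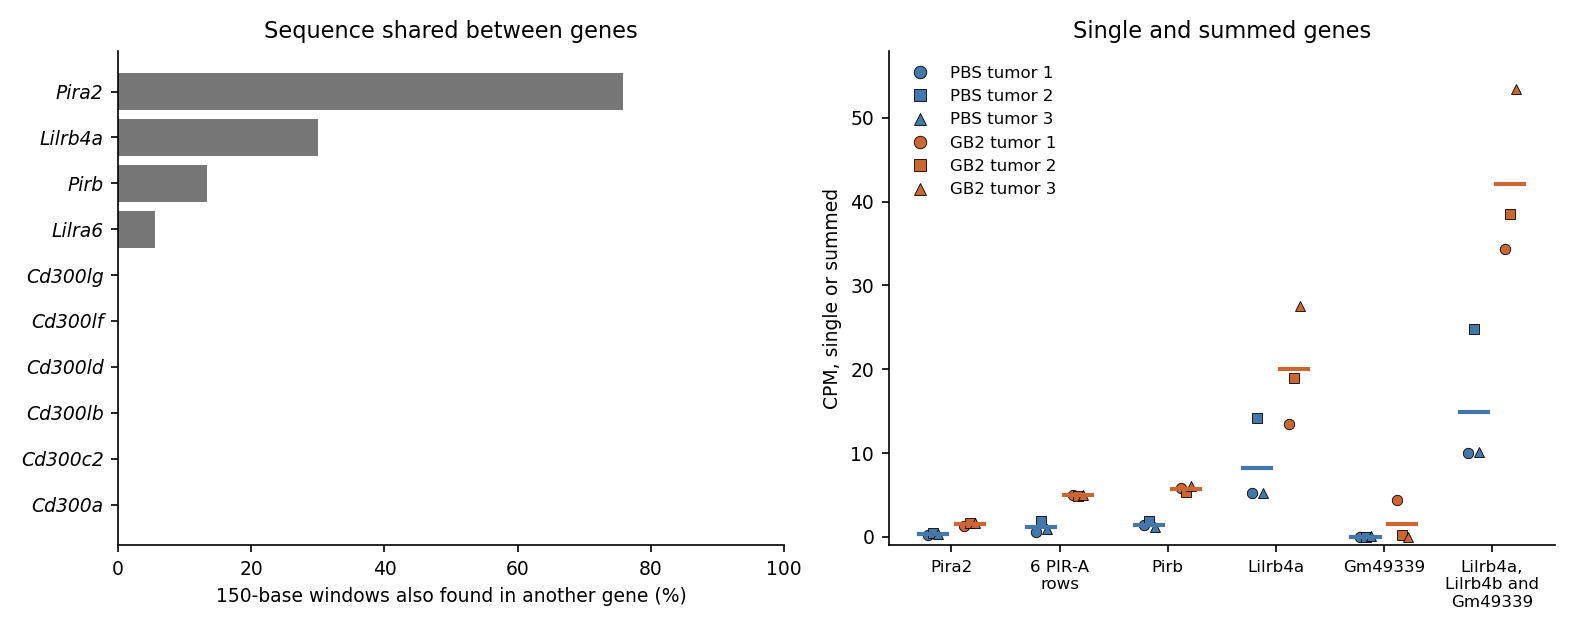
Left, percentage of 150-base transcript windows of each gene that also occur in another gene, and right, CPM of single and summed genes by tumor with bars at group means. Only the PIR genes and Lilrb4a share windows, and the Lilrb4 sum separates the groups where Lilrb4a alone does not. Lilrb4b, a part of that sum not drawn by itself, separates them too.

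The other receptors of the families were listed with earlier results of these data known, so their counts are no independent support. Of 19 listed, 15 were in the table and 12 were tested. All 12 had a log2 fold change above 0, as did 48.3% of all tested genes. Their median was 2.02 beside -0.02 over all genes. It was 1.85 with the 3 genes whose PBS tumors all held under 3 read pairs put at their bound. At the adjusted threshold edgeR called 0 and DESeq2 6, where it called 380 of all genes. With the unadjusted p under 0.05 and at least 2-fold between groups, 9 of 12 were higher and 0 lower, where 3.74% of all tested genes were higher and 0.918% lower. The number of lower genes depended on the tumors included, with 548 genes without PBS tumor 3 and 310 without PBS tumor 2 against 180 with all.
Lilrb4b, the paralog next to Lilrb4a, stood at 278, 742 and 341 counts in PBS tumors and at 1387, 1609 and 2206 in GB2 tumors. The groups did not overlap, and the log2 fold change was 1.62 (SE 0.38, adjusted p 0.276, edgeR).
Lair1, an inhibitory collagen receptor, had 46, 51 and 33 counts against 196, 151 and 337, a log2 fold change of 2.04 (adjusted p 0.234, edgeR). Pilra, an inhibitory receptor of myeloid cells, had a log2 fold change of 1.54 (adjusted p 0.360, edgeR). Pilrb1, the activating counterpart of Pilra, held 0, 4 and 0 counts in PBS tumors and 25, 26 and 35 in GB2 tumors. Against a floor of 3 read pairs in each PBS library, it was at least 1.88-fold higher in GB2 tumors.
In the CD300 cluster, Cd300ld4 held 0, 0 and 4 counts against 66, 50 and 66, which is at least 3.99-fold higher by the same floor. Cd300ld3 (log2 fold change 1.80) and Cd300ld5 (2.88) were also higher, with adjusted p values of 0.360 and 0.465 in edgeR's test. Of the PIR-A genes, Pira1 had a log2 fold change of 1.9 (adjusted p 0.276) and Pira12 one of 2.23 (adjusted p 0.535). Pira12 held 3, 22 and 6 counts in PBS tumors. It came to 3.36 once PBS tumor 2 was left out and to 1.85 without PBS tumor 1. Cd300ld5 came to 3.75 without PBS tumor 3 and 2.12 without GB2 tumor 3. Cd300c held 4 counts in 1 PBS tumor and 0 in the other 5, and Cd300ld2 held 11 counts in 1 GB2 tumor and 0 elsewhere.

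**Figure D4:**
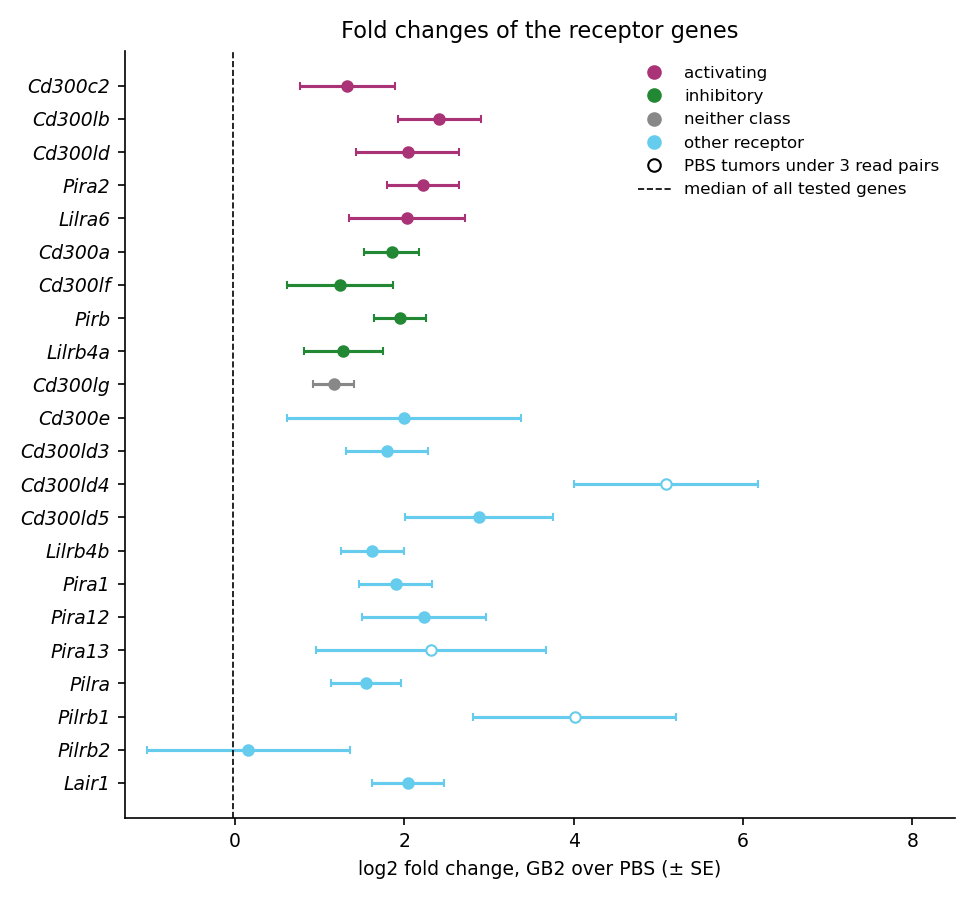
Log2 fold changes of GB2 over PBS tumors with standard errors from the edgeR fit, for the 10 members by role and 12 other receptors. Hollow points have PBS tumors that all held under 3 read pairs, so their fold is not a bound, and the dashed line is the median of all tested genes (-0.02).

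Of the genes that carry or end the receptors' signals, 18 of 19 were tested, and 15 of them had a log2 fold change above 0, as did 48.3% of all tested genes, with a median of 1.04. edgeR called 0 and DESeq2 4, where it called 380 of all genes. At the same unadjusted limits 8 were higher, against 3.74% of all, and 0 lower. Of the adaptors, Hcst was far lower per length than Fcer1g and Tyrobp. Mean FPKM of Fcer1g was 3.65 ± 1.2 (SD, n = 3) in PBS and 9.18 ± 3.1 in GB2 tumors. That of Tyrobp was 2.06 ± 0.95 and 7.2 ± 1.9, and that of Hcst 0.061 ± 0.071 and 0.115 ± 0.111. Fcer1g, the Fc receptor gamma chain used by PIR-A, stood at 284, 252 and 148 counts in PBS tumors and 517, 600 and 952 in GB2 tumors, a log2 fold change of 1.23 (adjusted p 0.504, edgeR). Tyrobp, which encodes DAP12, had 109, 139 and 49 counts against 324, 377 and 538, a log2 fold change of 1.71 (0.352). Hcst, the gene of DAP10, did not pass the filter and held at most 14 counts in any tumor.
Among the kinases and scaffolds downstream, Vav1 (log2 fold change 2.03, adjusted p 0.243), Fgr (1.55, 0.385), Lcp2 (1.49, 0.448), Btk (1.27, 0.527) and Lyn (1.24, 0.269) were higher in each GB2 tumor than in any PBS tumor. Syk (0.78, 0.545) and Plcg2 (0.86, 0.509) were also higher without overlap but stayed under a fold change of 2. In all, 10 of the 18 partners were higher without overlap, as were 8.61% of all tested genes. The phosphatases differed from each other in fold change. Inpp5d, which encodes the leukocyte phosphatase SHIP-1, had 99, 183 and 152 counts against 486, 402 and 673, a log2 fold change of 1.53 (adjusted p 0.234, edgeR). Ptpn6, which encodes SHP-1, stood at 77.9, 79.7 and 89.5 CPM in PBS tumors and at 67.3, 71.0 and 74.4 CPM in GB2 tumors. It was the 1 partner that was lower in each GB2 tumor than in any PBS tumor, as were 6.68% of all tested genes. Its log2 fold change was -0.22 (adjusted p 0.781, edgeR). Ptpn11, which encodes SHP-2, had one of 0.25 (0.789) from 143 CPM. Its log2 fold change was 0.15 without GB2 tumor 2, 0.16 without PBS tumor 1 and 0.36 without PBS tumor 3. Ptpn6 and Ptpn11 lay far above the leukocyte marker Ptprc, which was at most 13.4 CPM in any tumor. Which cells gave their RNA cannot be told from whole tumors.
Genes of the ligand list, which also holds the associated receptor chain Il4ra, had fold changes in both directions. Of 13 tested, 10 had a log2 fold change above 0, as did 48.3% of all tested genes. Their median was 0.36 beside -0.02 over all genes (0.16 without GB2 tumor 3 and 0.20 without GB2 tumor 2). edgeR called 0 of them, and DESeq2 called 1, Il4ra, where it called 380 of all genes. At the unadjusted limits 2 were higher, against 3.74% of all tested genes, and 0 lower. In the MHC class I genes bound by PIR-B the groups overlapped. H2-K1 had 17346, 25718 and 9254 counts in PBS tumors and 9396, 17578 and 25462 in GB2 tumors, a log2 fold change of -0.34 (adjusted p 0.868, edgeR). Leaving out PBS tumor 2 gave -0.03, leaving out GB2 tumor 1 gave -0.04 and leaving out GB2 tumor 3 gave -0.70. H2-D1 had one of 0.15 (0.951) and B2m one of 0.02 (0.993), with PBS tumor 3 and GB2 tumor 1 the lowest in both. Both turned below 0 without PBS tumor 3 (-0.27 for H2-D1 and -0.42 for B2m) and without GB2 tumor 3 (-0.35 and -0.33). Il4ra, an IL-4 receptor chain that associates with CD300LF, had a log2 fold change of 1.57 (0.216).

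**Figure D5:**
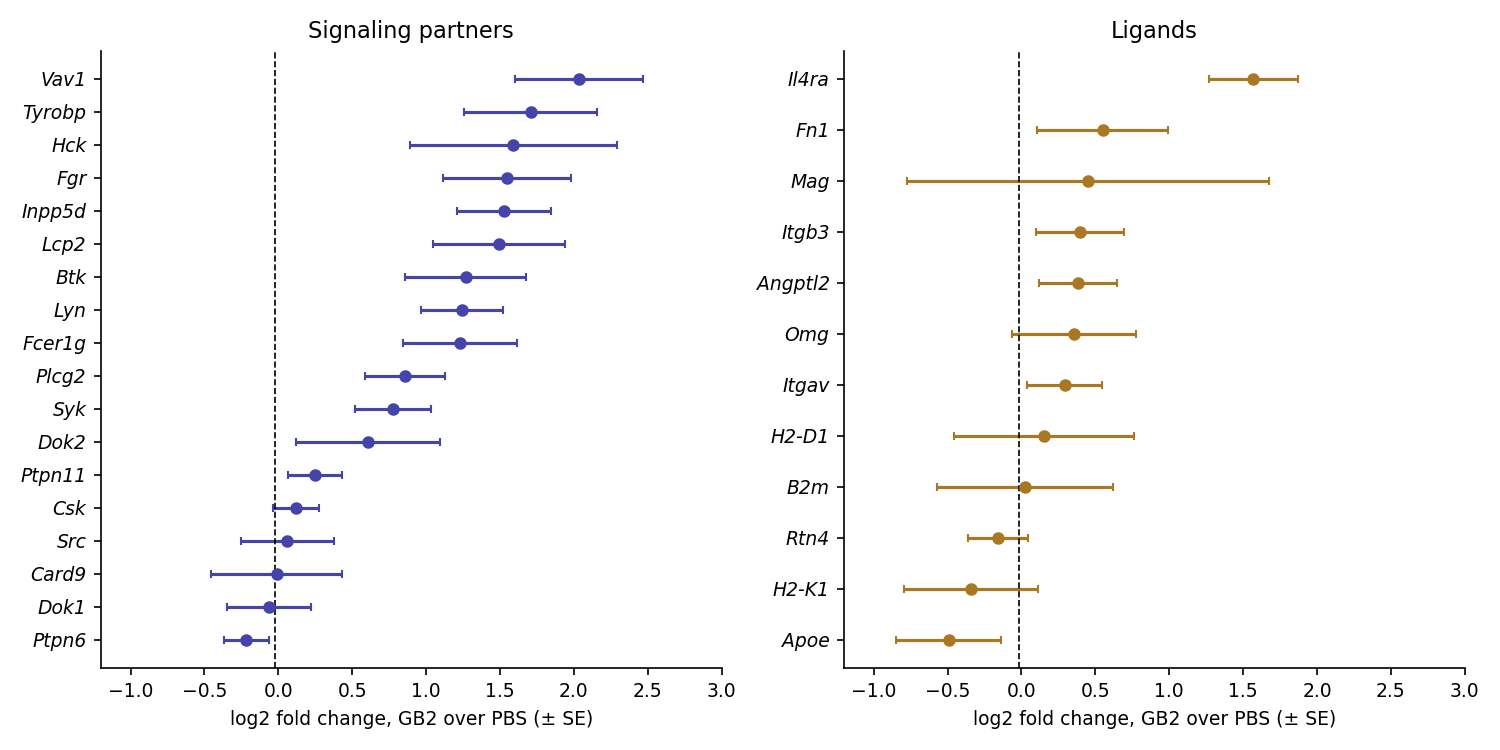
Log2 fold changes with standard errors from the edgeR fit, with the median of all tested genes dashed. Left, 18 signaling partners, and right, 12 of the 13 genes of the ligand list, with the receptor chain Il4ra among them. Tyrobp, Fcer1g, Vav1 and Lyn lie to the right of the line, while Card9 and B2m lie close to it and Ptpn6 and H2-K1 to its left.

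Paired receptors of other families were listed as well, and 12 of 15 were tested. All 12 had a log2 fold change above 0, as did 48.3% of all tested genes. Their median was 1.66 beside -0.02 over all genes, or 1.60 with Sirpb1b at its bound. edgeR called 0 of them, and DESeq2 called 2, where it called 380 of all genes. At the unadjusted limits 6 were higher, against 3.74% of all genes, and 0 lower, and without GB2 tumor 2 only 3 were higher. Fcgr3 (log2 fold change 1.87, adjusted p 0.276), Siglec1 (1.70, 0.216), Sirpb1c (2.28, 0.508), Sirpb1b (at least 2.17-fold, 0.699), Cd200r1 (1.73, 0.527) and Trem1 (1.68, 0.661) were the 6. Sirpb1c came to 3.37 without PBS tumor 2, and Cd200r1 and Trem1 to 2.38 and 2.35 without PBS tumor 1. Other tumors left out gave lower values. Sirpb1c and Trem1 came to 1.85 and 1.25 without PBS tumor 3, and Cd200r1 to 1.42 without PBS tumor 2. Sirpa, the inhibitory receptor for CD47, had a log2 fold change of 0.45 (0.659) from 110 CPM in PBS tumors.

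Genes whose profile over the 6 tumors was most like that of a member were found among 13973 genes with a mean log2 CPM of at least 0, as the smallest mean absolute difference between log2 CPM profiles centred on their own means. All profiles share the same 6 libraries, and no test was made. Cd84, Emilin2 and Folr2 were nearest to Pirb, at 0.099, 0.122 and 0.124 on the log2 scale, where the median over all genes compared was 0.996. Nearest to Pira2 were Acp5, Cd14 and Trem2 (0.131, 0.158 and 0.160), and nearest to Cd300a were Siglec1, C3ar1 and Tnn (0.104, 0.106 and 0.108). For Cd300c2 they were Ifi205, Ptprc and Aif1 (0.118, 0.138 and 0.141), and for Cd300lf they were Oas2, Abcc3 and Cxcl16 (0.164, 0.187 and 0.189). Cd300lb came nearest to Pcdhgc3, Cd14 and Acp5 (0.170, 0.172 and 0.255), and Cd300ld to Ifi207, Acp5 and Cmklr1 (0.241, 0.304 and 0.307). The profile of Lilra6 was closest to Nos2, Myo1f and Cd48 (0.213, 0.272 and 0.287). Lilrb4a had 9930111J21Rik2, Hoxd8 and Parp14 (0.0721, 0.135 and 0.143), and Cd300lg had Tcap, Rab3il1 and Snai1 (0.0473, 0.0633 and 0.0874).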

How the data were processed

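Bulk RNA-seq of 6 MC38 tumors was analysed from a table of 33965 genes. The authors deposited estimated counts, whole numbers not scaled between tumors, and FPKM values, which are divided by transcript length and library size. The submitters' processing notes name cutadapt 1.9, HISAT2 2.2.1, StringTie 2.1.6, DESeq2, edgeR and mm10.

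The members and all gene lists were chosen with earlier results of these data known. In R 4.3.3, genes were filtered with filterByExpr (minimum count 10), scaled by TMM and fitted with edgeR 4.0.16 (quasi-likelihood, no covariates) across 19602 genes. Calls needed a Benjamini-Hochberg adjusted p under 0.05 and at least 2-fold between groups. Log2 CPM used a prior count of 2. DESeq2 1.42.0, limma 3.58.1 on log2(FPKM + 1) and log2(FPKM + 0.1), other scaling factors, no filter, counts divided by 4, a replicate block and leaving out each tumor were alternatives. The scripts were tested on simulated data. Tumors within a group varied by 40.5% (biological coefficient of variation), and libraries held 64764405 to 83690056 counts. Precision is limited by the 3 tumors per group and, for members with few counts in PBS tumors, also by counting error.

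Named genes were all 10 members, every listed gene with an unadjusted p under 0.05, and, whatever their p, the adaptors, SHP-1, SHP-2 and SHIP-1 phosphatases, MHC class I genes and Lilrb4b. 1 ligand of the list is counted but not reported here by name. The floor was 3 read pairs, at an assumed 4 counts each, in every library of a group. Promoters are from RefSeq (GRCm38.p6), and windows and promoters were read in Python 3.11.15 with Biopython 1.88.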

Additional observations from a re-analysis of the deposited data

How the results depend on the processing

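Each member was higher in GB2 tumors in all 150 values under 15 settings. As the members were chosen on this contrast in these same tumors, nothing is read from that count. Of these values, 12 differed from the main fit by at least the SD between tumors within groups. The lowest was a log2 fold change of 0.24, for Lilra6 on log2(FPKM + 1). Of 32 named genes of the other lists, 2 reversed, both when PBS tumor 3 was left out (H2-D1 -0.27, B2m -0.42) and when GB2 tumor 3 was (-0.35 and -0.33), in ranges over single tumors of -0.35 to 0.56 for H2-D1 and -0.42 to 0.40 for B2m. DESeq2 called 380 genes (344 higher, 36 lower), with 6 of the other receptors, 4 signaling partners, 1 ligand and 2 other paired receptors, where edgeR called 0. At the unadjusted limits 382 genes were lower with DESeq2 and 338 without the filter on low counts. On log2(FPKM + 1), limma gave 95 higher and 36 lower genes, with 1 other receptor, 2 signaling partners, 0 ligands and 1 other paired receptor higher, a median of 0.52 for the members and -0.16 for the class difference. On log2(FPKM + 0.1) the class difference was 0.08, with 1 ligand higher. The larger pseudocount shrinks the folds of low genes by construction. Relative to the macrophage markers, an alternative chosen after seeing the data, the members' median was 0.10. Leaving out 1 tumor at a time gave 503 to 950 higher genes, 123 to 548 lower genes (310 without PBS tumor 2 and 548 without PBS tumor 3), 3 to 6 other paired receptors (3 without GB2 tumor 2), a members' median of 1.74 to 2.06 and a class difference of 0.23 to 0.59; the cause was not tested. The labels do not say whether the replicate numbers pair the tumors. Deviations of same-numbered tumors correlated at 0.03, 0.15 and -0.24, which cannot settle this with 3 tumors per group. With a replicate block edgeR called 0 genes, with 636 higher and 128 lower at the unadjusted limits, a members' median of 1.91 and a class difference of 0.43. Genes with under 3 read pairs in PBS tumors allow only lower bounds.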

Other observations

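Markers of other leukocytes that the receptors are known from were also measured. Monocyte markers summed to 1.42 to 5.36 CPM in PBS tumors and 5.65 to 14.9 CPM in GB2 tumors, and dendritic cell markers to 7.10 to 8.67 CPM against 9.19 to 10.8 CPM. Each single monocyte marker overlapped between the groups. Most of the dendritic cell sum was Zbtb46, which overlapped at 6.32 to 8.26 CPM against 8.18 to 9.67 CPM. T cell markers summed to 0.368 to 4.56 CPM against 0.643 to 2.72 CPM, B cell markers to 0.440 to 0.863 CPM against 0.441 to 0.866 CPM, and NK cell markers to 0.170 to 0.454 CPM against 0.286 to 1.41 CPM. In these last 3 lists the sums overlapped between the groups.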
